A study of Mus musculus with 1 sample.

Results

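The genes described here are the cell's own brakes on division: the 7 genes of the CDK inhibitor families (Cdkn1a, Cdkn1b, Cdkn1c, Cdkn2a, Cdkn2b, Cdkn2c and Cdkn2d), the pair Trp53 and Mdm2, and the retinoblastoma gene Rb1. They were chosen by gene symbol, as the 10 members of one functional group out of 19321 genes named on the array. A named probe was found for 9 of the 10, with 1 probe each. No probe used here carries the name or gene identifier of Trp53, so its transcript was not analysed here. The sample was RAW264.7, a macrophage-like mouse line made by Abelson leukemia virus, in its parental form, cultured in RPMI-1640 with 10% FCS (fetal calf serum) and without the mutagen ENU. The study's design sets this line against ENU mutants that no longer took up peroxiredoxin; mutant arrays were not analysed here. One total RNA sample was read on 1 one-colour Cy5 array, so there are no replicates, no spread between samples and no test; with a single array the precision is limited by the number of arrays. The labels give neither the density nor the cell cycle stage of the culture at harvest.

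Cyclin-dependent kinases (CDKs) drive a cell through its cycle, and 2 families of small proteins hold them back. The Cip/Kip family, Cdkn1a to Cdkn1c, binds many cyclin-CDK complexes, while the INK4 family, Cdkn2a to Cdkn2d, binds the kinases Cdk4 and Cdk6 alone. Both keep the Rb1 protein unphosphorylated, and in that form it holds the E2F factors that switch on replication genes. The factor p53 adds a damage-dependent brake by inducing Cdkn1a, and it also induces Mdm2, the ubiquitin ligase that destroys it. Cdkn2a makes a second protein, ARF, which blocks Mdm2. Loss of ARF or of p53 is well known, as background, in B-lineage cells transformed by the Abelson virus; neither protein was measured here.

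Values are the median 635 nm intensity of a spot, in arbitrary units, with no background subtracted. They were read against 2 limits. The blank limit, 22.98, is the mean plus 2 SD of 2464 empty spots, whose mean was 20.6 and whose SD was 1.18. Those spots are what remained after the extremes were left out, and of all 2736 blanks 195, or 7.13%, read over the limit. The receptor limit, 55.8, was exceeded by 5% of 1221 probes for olfactory, vomeronasal and taste receptors. These genes were presumed to be low in this line, which was not tested. Probes differ in how well they bind, so levels of different genes were not ranked. Control sequences present at 24 spots each gave spot-to-spot coefficients of variation within the array. These ran from 3.50% to 8.91% for negative controls, whose means were 19.0 to 20.3. Positive controls, with means of 12934 and 29507.5, gave 4.98% and 5.37%. No control read between these levels, so the variation of spots with moderate signal was not measured. Cell type markers were read beside the label. All 12 macrophage markers checked were over the blank limit and 11 also over the receptor limit, beside 72.8% and 42.7% of all named genes. Mertk passed the blank limit only narrowly, at 1.01 times. Of 26 markers of T, B, fibroblast, endothelial, epithelial and erythroid cells, 15 were over the blank limit and 0 exceeded the higher one.

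Of the 9 measured brakes, 7 read over the blank limit and 6 of these over the receptor limit. The local background around each of these 6 spots, from 33.9 to 69.4, was itself over the blank limit. That of Cdkn2d was also over the receptor limit. Receptor limit calls were not repeated with plain local background subtraction. They were repeated with normexp, a correction that uses the local background. With it 5 of the 9 were over, and Cdkn1b was not, at 0.907 times the limit. Cdkn1a, Cdkn2c, Cdkn2d, Mdm2 and Rb1 exceeded the receptor limit by more than the spot-to-spot variation of the control spots. The sixth, Cdkn1b, lay on it, at 1.007 times the limit, and cannot be placed on either side. Cdkn2b lay between the limits, and Cdkn1c and Cdkn2a did not pass the blank limit. Among all named genes 72.8% read over the blank limit and 42.7% over the receptor limit, against 77.8% and 66.7% of these 9, or 55.6% at the receptor limit without Cdkn1b. With 9 genes, 1 gene moves a share by over 10 points. The median signal was 80.3 over the 9 and 40.1 over all named genes, each gene taken at its highest probe. The first is the Rb1 reading, around which the local background was 40.9. Medians here and below hold local background, which was not subtracted, and do not compare expression between gene groups.

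**Figure D1:**
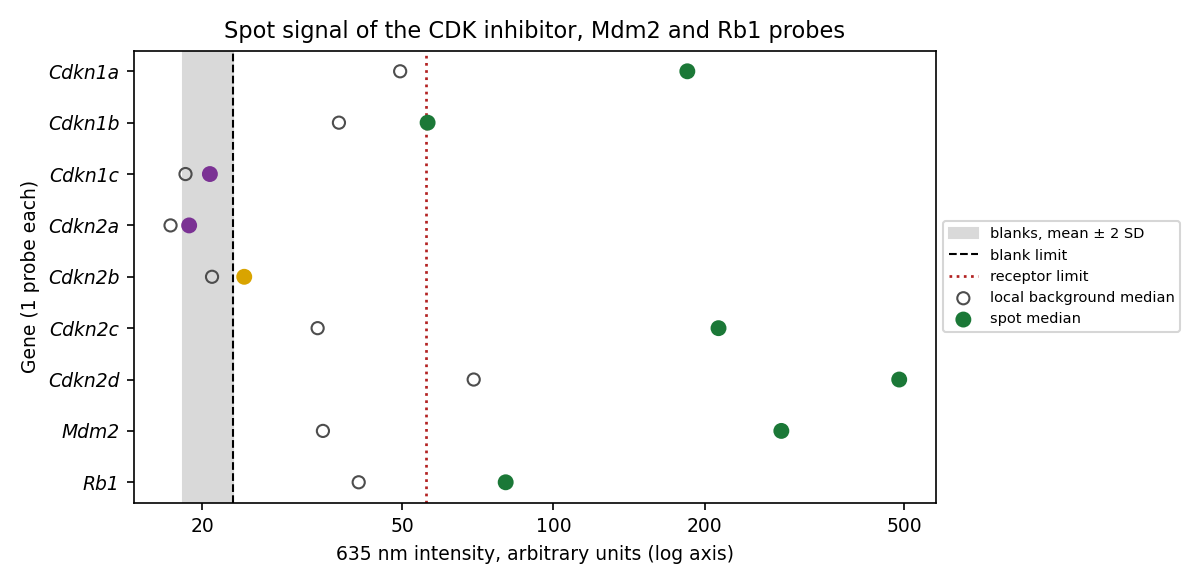
Spot median (filled) and local background median (open) of the 9 probes at 635 nm, in arbitrary units on a log axis, for the 1 parental array. Green marks signals over the receptor limit of 55.8, yellow a signal between the limits, and purple signals not over the blank limit of 22.98; the grey band is the mean of the blanks plus and minus 2 SD. Cdkn1c and Cdkn2a sit inside the band, and Cdkn1b sits on the receptor limit.

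Cdkn1a encodes p21, the inhibitor best known as a direct p53 target. Its probe (M200007578) read 185, which is 8.04 times the blank limit and 3.31 times the receptor limit. The background around the spot read 49.5, so the spot stood 3.73 times over its surroundings. None of the 2736 blanks reached it, and 0.491% of the receptor probes did. It stayed over both limits in every setting tried, but plain local background subtraction was tried at the blank limit only. The authors' processed table gives 80 for the same probe.

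The RefSeq promoter window of the upstream Cdkn1a start is shown because it holds the only near match to a p53 response element among the brakes. The window is chr17:29090729-29091028 of GRCm38.p6 on the plus strand, 250 bases before the start to 50 after it. The capitals mark the match, 2 adjacent p53 decamers with at most 1 mismatch over both, at bases -51 to -32 from the start.
Cdkn1a, upstream start: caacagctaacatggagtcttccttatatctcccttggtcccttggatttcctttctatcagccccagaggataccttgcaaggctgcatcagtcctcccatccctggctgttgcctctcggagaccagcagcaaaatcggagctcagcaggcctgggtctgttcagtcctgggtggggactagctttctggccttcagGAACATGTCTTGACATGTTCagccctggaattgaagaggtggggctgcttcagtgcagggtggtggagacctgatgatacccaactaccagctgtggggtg
Such a near match occurs in 29 of 32851 windows of this length, or 0.0883%, and in 1 of 11 windows of the brakes. Another search allowed no mismatch but a spacer of up to 13 bases. It also matched this window alone among the 11, with an overlapping stretch, and 24 of 32851 windows in all. With neither a mismatch nor a spacer allowed, 0 of the 11 windows matched, and 3 of 32851 in all. The window of the downstream Cdkn1a start had no match in any of these searches. A match in letters is a description of the sequence; p53 binding was not measured.

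Cdkn1b encodes p27, which rises in resting cells and is destroyed as cells enter S phase. Its probe (M200002663) read 56.2, or 2.44 times the blank limit. That is 1.007 times the receptor limit, a margin well inside the spot-to-spot variation of the control spots. The local background was 37.4, so the spot stood 1.50 times over it, and 4.83% of receptor probes read as high. In 1 of 4 other settings it was over the receptor limit, that of the lowest probe, which cannot change a gene with 1 probe. The remaining settings did not place it over. In one of them, the authors' table, which follows the same spot medians, it was level with the limit. Much of p27 control is known to act on the protein, which an RNA array does not read.

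Cdkn1c encodes p57, an imprinted inhibitor that is used mainly in embryonic and placental tissue. Its probe (M200011642) read 20.7, level with the mean of the blanks (0.0520 SD over it) and 0.900 times the blank limit. Of the blanks 46.7% read as high or higher, as did 52.8% of the receptor probes. The authors' table has no value for it. It was not over the blank limit in any of the 9 other settings, where it ranged from 0.373 to 0.980 times the limit. A low reading can come from a scarce transcript or from a probe that responds poorly, and these cannot be told apart with 1 probe.

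Cdkn2a encodes p16 from one start and ARF from another start upstream. Its probe (M300015329) read 18.8, at 0.819 times the blank limit and -1.54 SD from the blank mean. Of the blanks 90.8% read as high or higher. No setting placed it over the blank limit, with ratios from 0.262 to 0.937. The annotation assigns the probe to the gene and to 1 of its RefSeq transcripts, and the probe sequence was not used here. Whether the probe reads the p16 transcript, the ARF transcript or both was not tested.

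The windows of both Cdkn2a starts and of the neighbouring Cdkn2b start, all on the minus strand of GRCm38.p6, are shown because these are the INK4 genes with no signal or marginal signal. The capitals mark the E2F site, searched as TTTCCCGC, TTTCGCGC, TTTGCCGC or TTTGGCGC on both strands. The ARF window is chr4:89294570-89294869, the p16 window chr4:89282143-89282442 and the Cdkn2b window chr4:89310983-89311282.
Cdkn2a, upstream (ARF) start: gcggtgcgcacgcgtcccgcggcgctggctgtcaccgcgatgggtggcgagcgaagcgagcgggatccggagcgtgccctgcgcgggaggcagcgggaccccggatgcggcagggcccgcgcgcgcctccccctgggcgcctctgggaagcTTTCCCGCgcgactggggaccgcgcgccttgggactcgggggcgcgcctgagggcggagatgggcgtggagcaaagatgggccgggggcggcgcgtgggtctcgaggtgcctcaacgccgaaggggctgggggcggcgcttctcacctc
Cdkn2a, downstream (p16) start: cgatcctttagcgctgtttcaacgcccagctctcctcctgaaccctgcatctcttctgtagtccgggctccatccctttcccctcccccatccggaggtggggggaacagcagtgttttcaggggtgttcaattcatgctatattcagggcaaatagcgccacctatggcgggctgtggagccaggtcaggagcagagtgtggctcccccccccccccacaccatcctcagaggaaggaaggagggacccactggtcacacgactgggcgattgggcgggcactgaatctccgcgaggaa
Cdkn2b: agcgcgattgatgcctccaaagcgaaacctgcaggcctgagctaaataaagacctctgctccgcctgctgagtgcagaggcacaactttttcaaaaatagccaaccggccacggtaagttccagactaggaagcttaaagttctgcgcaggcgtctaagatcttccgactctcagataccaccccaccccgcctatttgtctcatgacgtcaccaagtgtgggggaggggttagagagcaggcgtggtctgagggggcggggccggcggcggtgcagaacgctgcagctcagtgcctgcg
The ARF window held 1 E2F site, TTTCCCGC at bases -99 to -92, and no other of the 11 windows held one; across all windows the share was 2.26%. It was also the richest in G and C of the 11, at 77.0%, with 45 CpG dinucleotides, against a median of 52.7% and 7 over all windows. The p16 window had 60.3% and 12 CpG, and the Cdkn2b window 57.7% and 18. Methylation and factor binding were not measured.

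Cdkn2b encodes p15, the INK4 protein known to rise with TGF-beta. Its probe (M400010747) read 24.2, or 1.05 times the blank limit and 0.434 times the receptor limit. It stood 3.05 SD over the blank mean, yet 54 of 2736 blanks (1.97%) and 31.4% of the receptor probes read as high. The local background was 20.9, the limit of its own block was 23.5, and the table value was 2. The call was lost in 3 of 9 other settings, at 0.978 times the limit with the 99th percentile of the blanks, 0.963 with normexp background correction and 0.567 with the local background subtracted. An adjacent spot read 10982; its part in the reading was not tested.

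Cdkn2c and Cdkn2d, the other two INK4 genes, gave clear signal. Cdkn2c, which encodes p18, read 213 (probe M200000730), 9.28 times the blank limit and 6.29 times its local background of 33.9. Cdkn2d, which encodes p19INK4d, read 488 (probe M400009609), 21.3 times the blank limit and 7.04 times its local background of 69.4. The table values were 94 and 227. The brightest spots next to them in the same row read 4716 and 10263, against 28.2 beside Cdkn1a, 182 beside Cdkn1b, 489 beside Mdm2 and 652 beside Rb1. Spots in the rows above and below were not looked at. The part of adjacent spots in these readings was not tested. Cdkn2c and Cdkn2d stayed over both limits in every setting run for each limit. Cdkn2c stood at 3.57 to 30.6 times and Cdkn2d at 7.12 to 71.4 times the blank limit of the setting. Cdkn2a and Cdkn2b, the INK4 genes without clear signal, lie next to each other; Cdkn2c lies far off on the same chromosome, and Cdkn2d lies on another.

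The Cdkn2d window, chr9:21291160-21291459 of GRCm38.p6 on the minus strand, is shown beside those of Cdkn2a and Cdkn2b as that of an INK4 gene with signal over both limits. Its capitals would mark a p53 element or an E2F site, and it has neither.
Cdkn2d: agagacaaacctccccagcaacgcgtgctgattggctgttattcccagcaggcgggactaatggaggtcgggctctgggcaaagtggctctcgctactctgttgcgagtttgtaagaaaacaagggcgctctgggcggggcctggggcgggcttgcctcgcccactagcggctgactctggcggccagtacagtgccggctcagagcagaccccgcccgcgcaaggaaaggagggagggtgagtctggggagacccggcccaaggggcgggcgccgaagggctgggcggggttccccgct
The motif GGGCGG, the core of a GC box, searched on both strands, occurred 5 times in this window. It occurred in 8 of the 11 windows of the brakes, those of Cdkn2a and Cdkn2b included, and in 35.7% of all windows, so it did not separate the INK4 genes with signal from those without. TATAAA on either strand occurred in 1 of the 11, that of Trp53, and in 13.6% of all windows. RefSeq windows were found for 8 of the 10 genes, without Cdkn1c and Rb1.

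Genes on either side of the Cdkn2a and Cdkn2b pair were read to place the low signals in their neighbourhood; this was chosen after the values of the pair were seen. Order was taken from RefSeq genes of GRCm38.p6. Mtap, the enzyme of methionine salvage that directly neighbours Cdkn2a, read 410, or 17.8 times the blank limit. On the side of Cdkn2b, Dmrta1 read 47.0 and Zfp352 read 26.8, both between the limits, and the 2 probes of Elavl2, an RNA-binding protein of neurons, disagreed at 130 and 18.0. Farther on, Izumo3 (21.3) and Tusc1 (22.5) did not pass, the probes of Caap1 disagreed, at 13.1 times the blank limit and at a signal of 19.2 under it, and Plaa, at 32.5 times, passed both limits. Of the interferon genes beyond Mtap, Ifne read 29.7, between the limits, and the Ifna genes ran from Ifna4 at 19.6 to Ifna1 at 153. Transcripts of the Ifna genes are so alike that each of their readings is uncertain. Gene copy number was not measured.

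**Figure D2:**
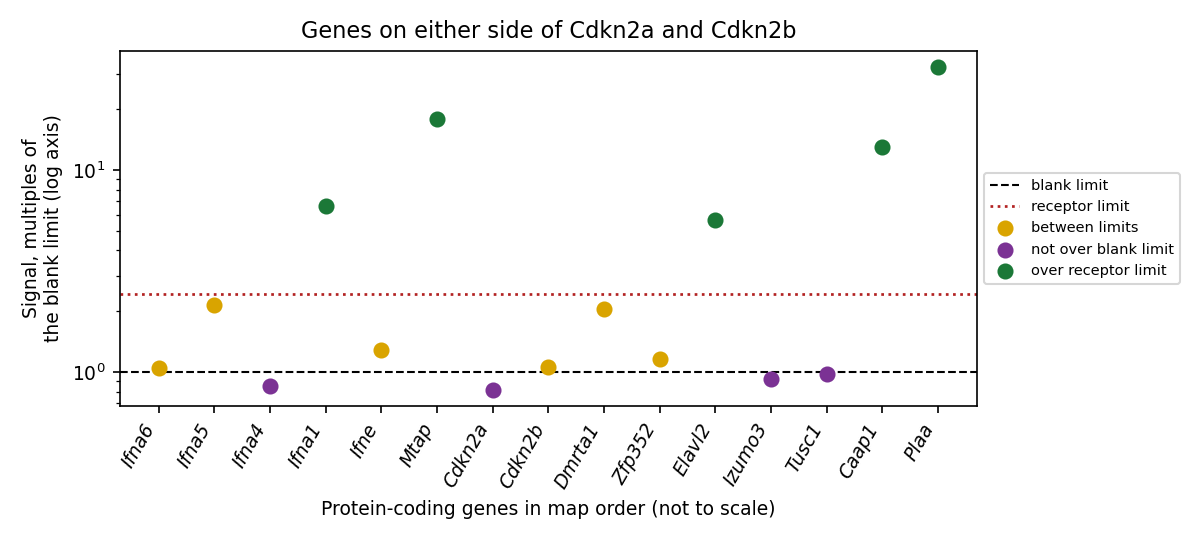
Signal of the highest probe of each protein-coding gene near Cdkn2a and Cdkn2b, as a multiple of the blank limit (dashed) on a log axis, in map order and not to scale. Mtap, next to Cdkn2a, stood at 17.8 times the limit, Cdkn2a at 0.819 and Cdkn2b at 1.05; the dotted line is the receptor limit.

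Mdm2 encodes the ligase that marks p53 for destruction and is itself a p53 target. Its probe (M200004469) read 284, or 12.4 times the blank limit and 5.10 times the receptor limit. The spot stood 8.19 times over its local background of 34.7, and 0.164% of receptor probes read as high. It passed both limits in every setting run for each limit, at 4.61 to 42.5 times the blank limit. The table value was 128. The window at the Mdm2 start on the reference held no p53 element; the known p53-responsive promoter of Mdm2 lies inside the gene, outside this window.

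Rb1 encodes the pocket protein on which the inhibitors converge. Its probe (M200000109) read 80.3, or 3.50 times the blank limit and 1.44 times the receptor limit. The spot stood 1.96 times over its local background of 40.9, and 2.46% of receptor probes read as high. It kept to the same side of the blank limit in all 9 other settings, and it fell to 0.550 times the limit when the 99th percentile of the receptor probes was used.

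**Figure D3:**
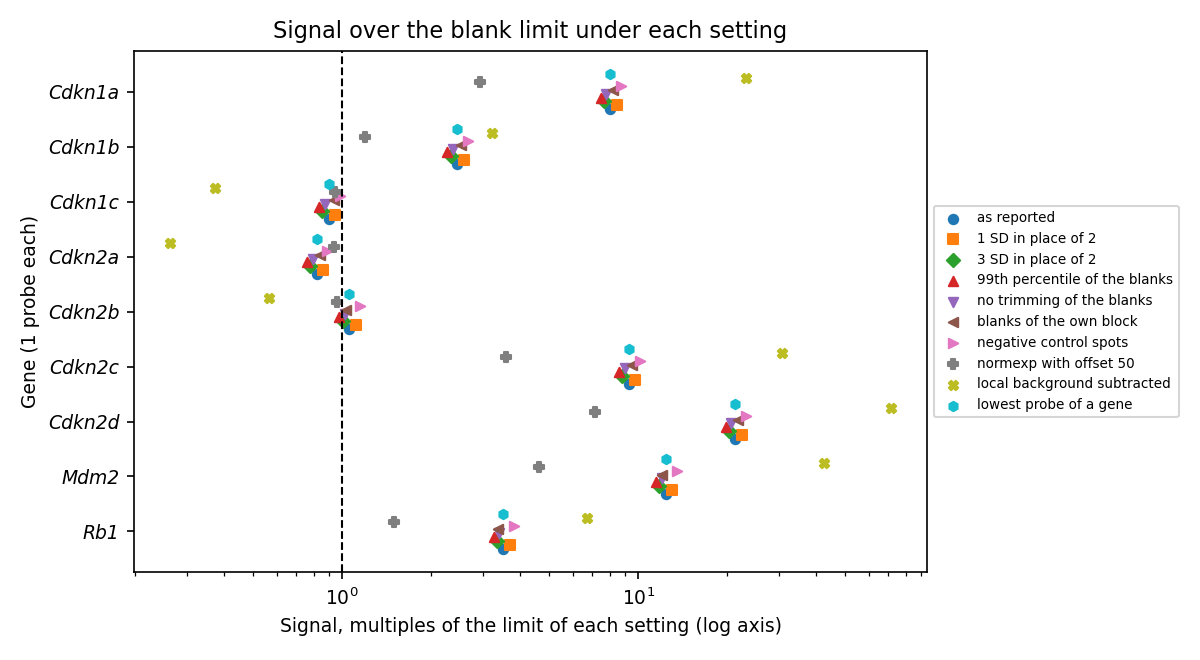
Signal of each of the 9 probes as a multiple of the limit of each setting, on a log axis, for the reported setting and 9 others; the dashed line is the limit. The points of Cdkn2b fall on both sides of it, those of Cdkn1c and Cdkn2a to its left, and those of the other 6 genes to its right.

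Of 16 kinases, cyclins and their activators on which these inhibitors act, 13 were measured, without Ccne2, Ccnb1 and Cdk7. All 13 were over the blank limit and 12 over the receptor limit, beside 72.8% and 42.7% of all named genes. The INK4 targets Cdk4 and Cdk6 read 4425 and 111, and the Cip/Kip target Cdk2 read 203. Of the D cyclins, which activate Cdk4 and Cdk6, Ccnd1 read 975 and Ccnd3 read 260, while Ccnd2 lay between the limits at 29.5, or 1.28 times the blank limit. Ccne1, the partner of Cdk2 at S phase entry, read 424, and the later cyclins Ccna2 and Ccnb2 read 2433 and 1352.

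Downstream of the brakes, 11 of 12 pocket proteins, E2F and DP factors were over the blank limit and 10 over the receptor limit, beside 72.8% and 42.7% of all named genes. The relatives of Rb1, Rbl1 (p107) and Rbl2 (p130), read 438 and 301. E2f1, the activator that Rb1 holds, read 101, the repressor-type E2f4 read 85.2, and the DNA-binding partner Tfdp1 read 1625. E2f2 read 71.2 and E2f3 read 62.3, and the atypical repressor E2f7 lay between the limits at 29.1. Its relative E2f8 was not over the blank limit at 22.4. All 17 measured E2F targets of DNA replication passed both limits, among them the licensing factors Cdc6 at 329 and Cdt1 at 757 and the helicase subunits Mcm2 at 538 and Mcm3 at 1390. Their median was 1390.

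**Figure D4:**
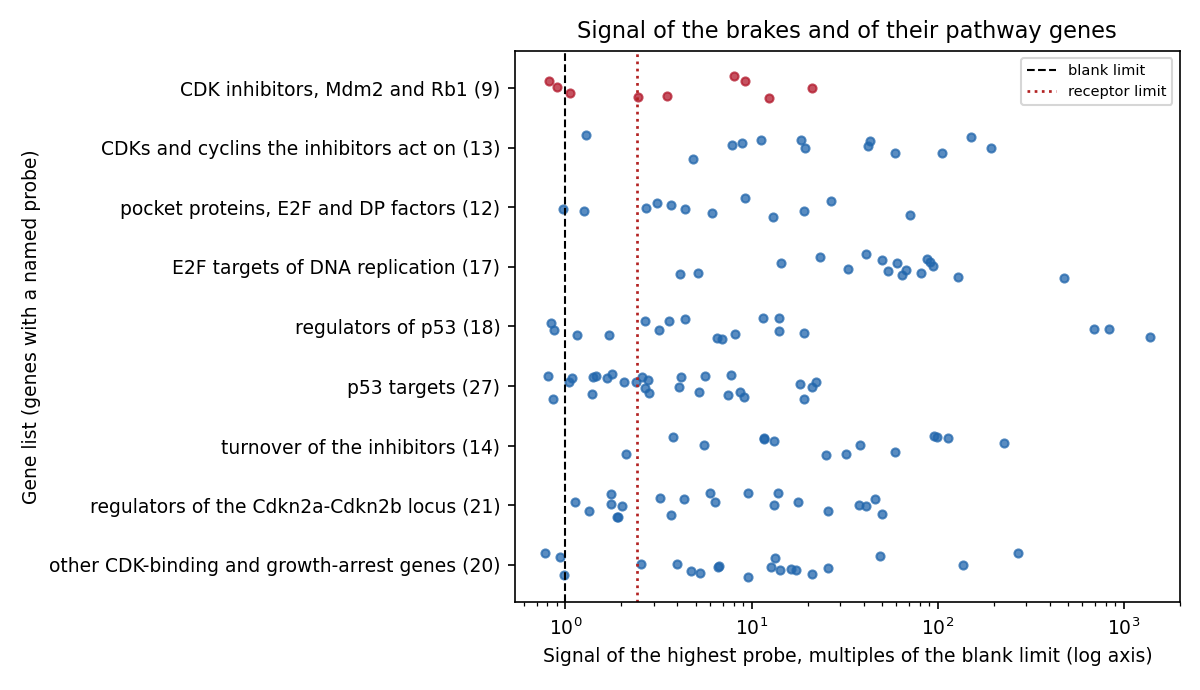
Signal of each gene's highest probe, in multiples of the blank limit on a log axis, for the 9 measured brakes (red) and for the genes of 8 pathway lists (blue); each point is 1 gene and its height within a row has no meaning. All 17 E2F targets lie to the right of the receptor limit (dotted), and the brakes spread from 0.819 to 21.3 times the blank limit (dashed).

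Of 18 measured regulators of p53, 16 were over the blank limit and 14 over the receptor limit, where all named genes stood at 72.8% and 42.7%. Mdm4, the Mdm2 relative that binds and restrains p53, lay between the limits at 26.6, or 1.16 times the blank limit. So did the acetyltransferase gene Crebbp at 39.5. The damage kinases Atm, Atr, Chek1 and Chek2, which act on p53 and its checkpoint, read 101, 187, 266 and 150. The phosphatase Ppm1d, itself a p53 target that turns p53 off, read 160. The ribosomal proteins Rpl5 and Rpl11 and the nucleolar protein Npm1, which can bind Mdm2, read 31638, 15861 and 19216. Trp63 and Trp73, the p53 relatives of epithelia and neurons, were not over the blank limit at 19.1 and 19.8. Probes disagreed for Cop1, at 324 and 48.4, and for Ep300, at 72.7 and 23.3.

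The p53 targets were measured beyond Cdkn1a and Mdm2. Of 27, 25 (92.6%) were over the blank limit and 16 (59.3%) over the receptor limit, with 9 between the limits and a median of 63.8; all named genes stood at 72.8% and 42.7%, with a median of 40.1. The cyclin G gene Ccng1 read 483, and Sesn1 and Sesn2, sestrins that act on nutrient signalling, read 419 and 438. Among genes of cell death, Aen read 208, Apaf1 95.9, Bbc3 (Puma) 59.2 and Pmaip1 (Noxa) 171. Btg2, an antiproliferative gene, read 129. Between the limits lay Gadd45a at 32.4, Trp53inp1 at 33.4, Perp at 31.9, Plk2 at 38.5 and Plk3 at 40.8. So did Phlda3 at 55.3, Xpc at 47.6, Tnfrsf10b at 24.8 and Sfn at 24.0. Phlda3, and Bbc3 on the other side, lay within the control spots' variation of the receptor limit. The split at that limit is therefore not settled for them. Eda2r at 19.7 and Rprm at 18.6 were not over the blank limit. Many of these genes also answer to other factors, so their signals do not measure p53.

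**Figure D5:**
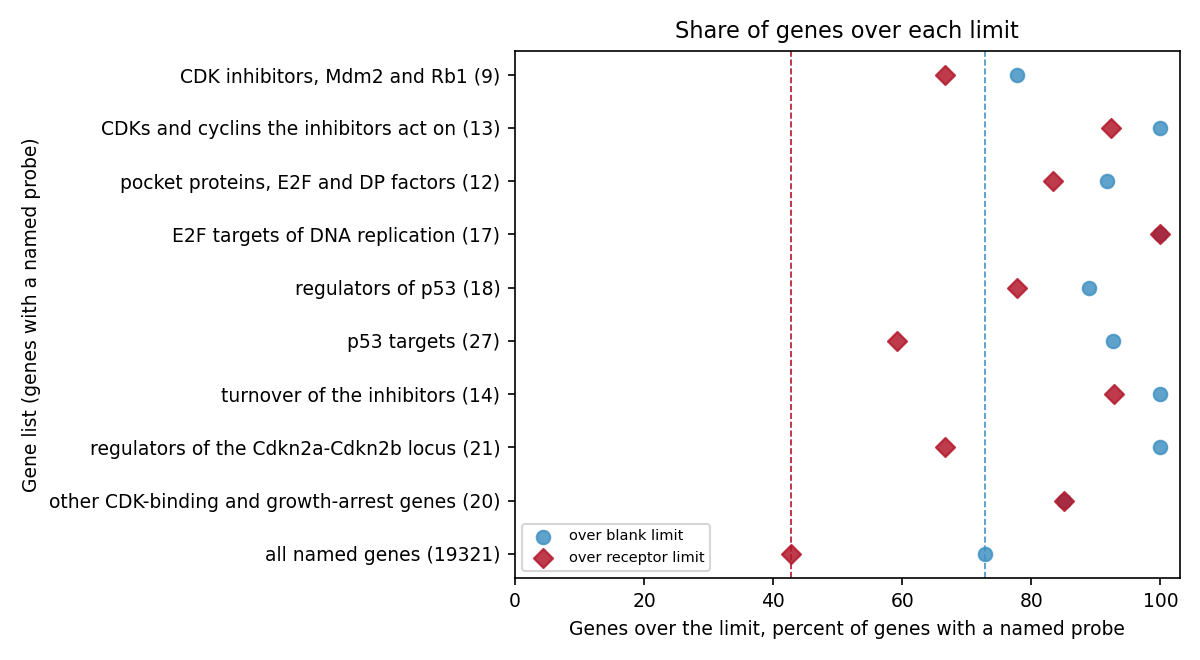
Percent of genes with a named probe over the blank limit (circles) and over the receptor limit (diamonds), for the brakes, the 8 pathway lists and all named genes, whose shares are also drawn as dashed lines at 72.8% and 42.7%. Diamonds of the p53 targets, at 59.3%, lie farthest left among the pathway lists; numbers in brackets are genes.

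Of the machinery that destroys the inhibitors, all 14 measured genes were over the blank limit and 13 over the receptor limit, beside 72.8% and 42.7% of all named genes. Skp2, the F-box protein that selects p27 for destruction, read 739, and its cofactor Cks1b read 5211. The scaffold Cul1 read 881 and Cdc20, the mitotic activator of the anaphase-promoting complex, read 2187. Dtl, which targets p21 in S phase, read 86.8. Rnf123, a cytoplasmic ligase for p27, lay between the limits at 48.9.

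Of 21 regulators and neighbours of the Cdkn2a and Cdkn2b genes, 21 were over the blank limit and 14 over the receptor limit, beside 72.8% and 42.7% of all named genes. The other 7 lay between the limits, as did 15 of the 26 markers of other cell types. Polycomb proteins are known to keep these genes silent. Ezh2, the methyltransferase of Polycomb complex PRC2, read 1157 and its partner Suz12 read 952. The probes of Eed, the third core subunit, disagreed, with 1053 on one and 21.1 on the other. Of the PRC1 complex, Bmi1 read 99.9, Rnf2 304 and Cbx8 138, while Ring1 at 44.2, Cbx2 at 30.9 and Cbx7 at 46.1 lay between the limits. The repressors of ARF Tbx2 and Tbx3 lay there too, at 43.5 and 25.9, as did Myc at 40.6 and Ets1 at 40.4. Dmtf1, an activator of ARF, read 220. These are transcript signals, and occupancy of the genes was not measured.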

How the data were processed

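One RNA sample of the parental line was measured. Per the labels' protocols, RNA was amplified, labelled with Cy5 and hybridised by the array maker's protocol. Per the file headers, the deposited scanner intensity is the spot median and local background median at 635 nm, from 3 gains; the sources used here do not give the combining tool. A second deposited file holds processed intensity values; set against the scanner values they follow the spot median minus the mean of the blanks, times 0.486, with 6784 empty cells for low spots. Of 27456 spots, 0 carried a flag. Probes were named by the platform annotation, with symbols updated through RefSeq gene identifiers (GRCm38.p6). Of 23473 probes, 20690 had 1 symbol, and 2783 with none or several were left unnamed. A gene took its highest probe. The blank limit leaves out 5% of the blanks at each end. Listed alternatives are given at the end. A spot mean was listed but no such column was used. Promoter windows came from RefSeq.

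The genes and lists were chosen with earlier results of these data known, and the promoter motifs, the neighbouring genes and the lists' alternatives were added later. All probes of the brakes are named, and of each list the genes not over the receptor limit, the first 4 alphabetically over it and a fixed set of partners; a few further genes were chosen after their values were seen, and some that the rule takes are left out. An old symbol, Skp1a, was merged with Skp1. Of 151 pathway genes, 142 had a probe; Bax was among the 9 not analysed here. Python 3.11.15, R 4.3.3 and limma 3.58.1 were used.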

Additional observations from a re-analysis of the deposited data

How the results depend on the processing

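Counts of brakes and of pathway genes changed by at most 1.5 times under each alternative run. The brakes reached that bound at the receptor limit, falling from 6 to 4. With 7 of 9 brakes over the blank limit, that count had little room to rise. The share of all named genes over the receptor limit fell from 42.7% to 27.5% with the 99th percentile of the receptor probes, a higher limit by construction. Over the blank limit stood 6 or 7 of 9 brakes, and over the receptor limit 6 as reported, 6 with lowest probes, 5 with normexp or the authors' table and 4 with the 99th percentile of the receptor probes. Each brake has 1 probe, so the lowest-probe setting could not change any brake at either limit. The authors' table follows the same spot medians, so at the receptor limit it could turn a call only through rounding. Plain local background subtraction was run at the blank limit only, while normexp, which also uses the local background, was run at both limits. The brakes' median ratio to the blank limit, 3.50, was 3.68 with 1 SD, 3.81 with negative controls, 3.24 with the 99th percentile of the blanks, 1.50 with normexp (offset 50) and 6.71 with local background subtracted; the last 2 rescale the signal, and the others move the limit. The calls that turned were Cdkn2b at the blank limit (0.978 with the 99th percentile, 0.963 with normexp, 0.567 with local background subtracted), Cdkn1b at the receptor limit (0.385 with the 99th percentile of the receptor probes, 0.907 with normexp, and 1.00, level with the limit, in the authors' table) and Rb1 at the receptor limit (0.550 with that 99th percentile). Of 142 pathway genes, 131 to 137 passed the blank limit and 82 to 113 the receptor limit. Signals near the blanks cannot be resolved on 1 array. No paired analysis was possible because there is 1 sample.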

Other observations

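Further genes that bind CDKs or slow growth passed the limits in 17 of 20 cases, the same 17 at both limits, beside 72.8% and 42.7% of all named genes. Btg1, an antiproliferative gene of leukocytes, read 3164, Cdk2ap1, which binds Cdk2, read 6190, and Cdk2ap2 read 399. Ccndbp1, which binds cyclin D, read 486, and the CDK-binding phosphatase gene Cdkn3 read 293. The inputs that are known to raise Cdkn2b gave uneven signal: Tgfb1, the ligand, read 153, the receptor Tgfbr2 read 592, Smad4 328 and Smad2 375 and 64.9 on its probes. Tgfbr1 at 22.6 and Smad3 at 21.5 were not over the blank limit. Cables1, an adaptor between CDKs and other kinases, was not over it at 17.9. Of the forkhead factors that raise Cdkn1b, Foxo1 read 58.4 and the probes of Foxo3 read 221 and 31.0. Foxo1, counted among the 17, lay within the control spots' variation of the receptor limit and cannot be placed on either side of it.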
